A study of Mus musculus with 3 samples.

Results

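The nuclear genes of oxidative phosphorylation were examined in the hippocampus of mice that carried a short or an expanded CUG repeat RNA. Members were all splicing events whose gene symbol starts with Nduf, Sdha to Sdhd, Uqcr, Cox followed by a digit, or Atp5. This rule found 89 events in 50 genes, of 8727 events in 4860 genes. The study made a mouse model of myotonic dystrophy type 1 by injecting an adeno-associated virus (AAV9) into the CA1 region of both hippocampi. The virus carried an Egfp reporter with (CTG)10 or (CTG)300 in its 3′-UTR, and it was given together with vehicle or with CWG-cPIP, a cyclic pyrrole-imidazole polyamide that binds CAG/CTG repeat DNA. All 3 mice were 10-week-old wild type C57BL/6J males, and RNA was taken 10 days after the gene transfer. One mouse formed each group, and values of the 3 libraries are always given in the order CUG10 + vehicle, then CUG300 + vehicle, then CUG300 + CWG-cPIP. Only cells of the hippocampus that took up the virus carry the repeat, and the libraries hold RNA of the whole hippocampus.

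Oxidative phosphorylation takes place in the inner mitochondrial membrane. Complex I oxidises NADH, complex II oxidises succinate, complex III passes the electrons on to cytochrome c, and complex IV hands them to oxygen. Complexes I, III and IV pump protons, and ATP synthase uses the return of these protons to make ATP. Neurons draw most of their ATP from this pathway. Most subunits are encoded in the nucleus by short mRNAs that almost every cell type expresses.

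Complex I, NADH dehydrogenase, contributed 24 genes (39 events), complex II 3 genes (7 events), complex III 2 genes (6 events), complex IV, cytochrome c oxidase, 10 genes (19 events) and ATP synthase 11 genes (18 events). Of the 50 genes, 37 encode subunits, and 13 encode assembly factors and related proteins. Of the 89 events, 67 were skipped exons, 12 were choices between 5′ splice sites and 5 between 3′ splice sites, 5 were pairs of mutually exclusive exons, and 0 were retained introns. All 67 skipped exons are exons of the mouse annotation (GENCODE M21, genome build mm10). An event entered the deposited table of a pair of libraries only if each of its forms had at least 1 count in that pair, so a gene without any alternative count was not seen.

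Each event has inclusion and skipping counts per library, and the inclusion level (PSI, percent spliced in, given here from 0 to 1) is the inclusion share after the counts of each form are divided by its effective length. With 1 mouse per group there was no replicate check. Fisher's exact test (two-sided) on the counts compares the reads of 2 libraries, not the conditions, and its p-values were adjusted (Benjamini-Hochberg) over all listed events of the type. Intervals are 95% intervals (Clopper-Pearson for a PSI, exact binomial for a ratio, exact Poisson for a level) and cover counting error only, since reads without molecular identifiers are not independent molecules. An event was called where the adjusted exact p was below 0.05, the PSI differed by more than 0.15 and each library had at least 20 counts.

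The 3 libraries held 560672 to 609546 counts over 7659 events, and the median event had 13 to 24 counts. CUG300 + vehicle stood apart. There, Ttr, which the choroid plexus makes in abundance, took 6.77% of the library, while its share was 0.0171% for CUG10 + vehicle and 0.0112% for CUG300 + CWG-cPIP. The 6 measured markers of microglia and immune cells (of 12 listed) summed to 2835, 19940 and 4921 CPM (counts-per-million of the library total), and all 6 were higher in CUG300 + vehicle than in CUG10 + vehicle. The 6 measured neuron markers (of 10) summed to 15280, 5697 and 14310 CPM, and 0 of 6 were higher in CUG300 + vehicle. The 4 measured oligodendrocyte markers (of 8) summed to 8770, 7317 and 9763 CPM. The single measured astrocyte marker had 518, 1402 and 961 CPM, the single endothelial marker 44.3, 28.2 and 51.7, and no measured marker of any list was at 0 in a library. In such bulk RNA, fewer cells of a type and less RNA per cell cannot be told apart.

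Among member events with at least 20 counts in each compared library, the largest PSI difference lay in a pair of exons that the splicing tables list as mutually exclusive. For such a pair, the inclusion form is the exon nearer the 5′ end and the skipping form is the other exon, and a read that joins both exons counts for neither. All 5 pairs, in Cox6b1, Ndufs1, Sdhc, Ndufa7 and Uqcrh, also occur together in at least 1 annotated transcript. The pair of Cox6b1, a nuclear subunit of complex IV, is printed first because it was the only member event called in any comparison. Its first exon is chr7:30624500-30624613 and its second is chr7:30623415-30623515, both on the minus strand of mm10. The first exon has 114 nt, of which 106 are coding, and capitals mark its start codon (base 9). The second exon has 101 nt, all coding, and capitals mark the start codon (base 24) annotated for a transcript that lacks the first exon.
Cox6b1 first exon: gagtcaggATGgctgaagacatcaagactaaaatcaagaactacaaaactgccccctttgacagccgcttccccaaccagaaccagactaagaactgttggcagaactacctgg
Cox6b1 second exon: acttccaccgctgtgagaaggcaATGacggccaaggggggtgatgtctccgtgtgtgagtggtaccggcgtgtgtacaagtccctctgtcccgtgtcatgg

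The junctions below show how 4 of the pairs are joined in 1 annotated transcript that holds both exons, because they are the sequence that an exclusive use of the pair would lack. The last 20 bases of the first exon are in lower case and the first 20 bases of the second exon in capitals.
Cox6b1 junction: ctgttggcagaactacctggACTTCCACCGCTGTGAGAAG
Ndufs1 junction: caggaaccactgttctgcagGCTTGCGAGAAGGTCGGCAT
Ndufa7 junction: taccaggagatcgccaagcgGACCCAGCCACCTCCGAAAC
Uqcrh junction: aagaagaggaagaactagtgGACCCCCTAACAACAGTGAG

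The Cox6b1 pair had 444 counts of the first exon and 804 of the second in CUG10 + vehicle, 355 and 1385 in CUG300 + vehicle, and 540 and 416 in CUG300 + CWG-cPIP. The PSI was 0.340 (0.314 to 0.366), 0.193 (0.175 to 0.212) and 0.547 (0.515 to 0.579) in that order. The 3 intervals do not overlap, with CUG300 + vehicle lowest and CUG300 + CWG-cPIP highest. The difference of CUG300 + vehicle from CUG10 + vehicle was -0.147 (-0.179 to -0.115, adjusted exact p = 6.5e-18), just under the size threshold, and that of CUG300 + CWG-cPIP from CUG300 + vehicle was 0.354 (0.318 to 0.391, adjusted exact p = 5.0e-77). CUG300 + CWG-cPIP and CUG10 + vehicle were not listed as a pair for this event. Their counts, taken from the other tables after the values had been seen, differed by 0.208 (0.166 to 0.248), and the adjusted exact p was 5.9e-20 over all events with counts for both libraries. CUG300 + CWG-cPIP thus stood on the other side of CUG10 + vehicle, and not at its level.

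Neither exon of the Cox6b1 pair was often skipped. As a skipped exon, the first was included in 1116 of 1116 counts in CUG10 + vehicle, with 1170 inclusion and 2 skipping counts in CUG300 + vehicle and 933 and 0 in CUG300 + CWG-cPIP, and the PSI was 1, 0.996 and 1. The second had 1480 inclusion and 4 skipping counts, 2209 and 11, and 811 and 2, which gave a PSI of 0.994, 0.988 and 0.994. The PSI of the pair therefore compares the read counts of 2 exons that were both retained in nearly all transcripts measured.

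The same held for the other 4 pairs: both exons of each had a PSI of at least 0.972 as skipped exons in every library. Over the whole series, 422 pairs were listed as mutually exclusive. Both exons were also listed as skipped exons in 302 of these, and in 110 both had a PSI of 0.9 or more in each library. In 333 of the 422, 1 annotated transcript holds both exons.

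Ndufs1 encodes the largest subunit of complex I, an iron-sulfur protein of its electron path. Its pair (first exon chr1:63170050-63170141, minus strand) had 35 and 81 counts in CUG10 + vehicle, 9 and 60 in CUG300 + vehicle, and 47 and 85 in CUG300 + CWG-cPIP. The PSI was 0.321 (0.236 to 0.416), 0.141 (0.0669 to 0.250) and 0.377 (0.293 to 0.467), lowest in CUG300 + vehicle. The difference of CUG300 + vehicle from CUG10 + vehicle, -0.180 (-0.292 to -0.0485), passed the size threshold, and the adjusted exact p was 0.18. The difference of CUG300 + CWG-cPIP from CUG300 + vehicle, not listed as a pair and taken from the other tables in the same way, was 0.236 (0.105 to 0.344) with an adjusted exact p of 0.016. Sdhc encodes a membrane anchor of complex II. Its pair was listed only for CUG300 + CWG-cPIP against CUG300 + vehicle. It had 129 and 204 counts with CWG-cPIP against 95 and 255 with vehicle, a PSI of 0.461 (0.405 to 0.517) against 0.335 (0.282 to 0.390), and a difference of 0.126 with an adjusted exact p of 0.026, which is 0.19 when the adjustment runs over all 5 event types.

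The pairs of Uqcrh, the hinge protein of complex III, and Ndufa7, an accessory subunit of complex I, differed less. The PSI of the Uqcrh pair was 0.222, 0.211 and 0.221 in the 3 libraries. That of the Ndufa7 pair was 0.461, 0.454 and 0.436. Within each of these genes the 3 intervals overlap.

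**Figure D1:**
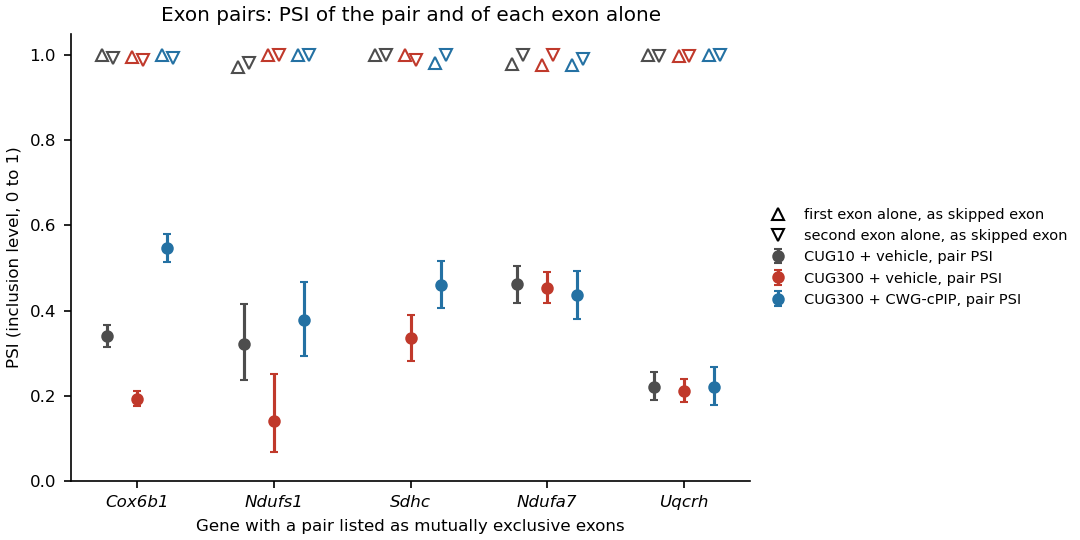
The vertical axis is the PSI (0 to 1) for the 5 genes with a pair listed as mutually exclusive. Filled circles with 95% Clopper-Pearson intervals are the PSI of the pair in each library of 1 mouse, and open triangles are the PSI of its first and second exon, each as a skipped exon. The triangles lie at 0.972 or above throughout, while the pair of Cox6b1 stands at 0.340, 0.193 and 0.547. The pair of Sdhc was not listed with CUG10 + vehicle, so it has no value there.

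Skipped exons of the members were included almost always. At 20 or more counts in each library there were 59, of which 54 had a PSI of at least 0.9 in all 3, and 30 of all 67 had at most 1 skipping count in any library. The deepest event of each complex shows the level. In complex IV, exon chr8:120672725-120672892 of Cox4i1, a regulatory subunit, had a PSI of 0.999 (0.996 to 1), 0.996 (0.992 to 0.999) and 0.998 (0.991 to 1) in the 3 libraries. In ATP synthase, exon chr10:128088321-128088533 of Atp5b, the catalytic beta subunit, stood at 1, 0.998 and 1. In complex III, the exon of 162 nt in Uqcrh, chr4:116069863-116070024, stood at 0.998, 0.998 and 1.

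The deepest exons of the other complexes behaved alike. The exon of Ndufb9 (complex I), chr15:58937352-58937465, had a PSI of 0.998, 1 and 0.996, and that of Sdhb, the iron-sulfur subunit of complex II (chr4:140966495-140966628), had 0.994, 0.994 and 1. In each of these 5 exons the libraries differed by less than the width of their intervals.

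The calls were counted among events with 20 or more counts per library. Between CUG300 + vehicle and CUG10 + vehicle, 0 of 63 member events of that depth were called, against 0.396% of all such events. The size threshold alone was passed by 1 of 63 (Ndufs1), against 9.34% of all events, and the adjusted exact test alone by 1 of 76 listed member events (Cox6b1), against 0.303%. Between CUG300 + CWG-cPIP and CUG300 + vehicle, 1 of 64 was called (Cox6b1), against 0.994% of all. The size threshold was passed by 2 of 64 (Cox6b1 and Cox18), against 11.3%, and the adjusted exact test by 3 of 79 (Cox6b1, Sdhc and Ndufv3), against 0.539%. Between CUG300 + CWG-cPIP and CUG10 + vehicle, 0 of 59 were called, against 0.226%, and 0 of 59 passed the size threshold, against 8.56%. The adjusted exact test was passed by 1 of 71 (Ndufv3), against 0.229%.

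The median absolute PSI difference of the members was 0.0112, 0.0145 and 0.0177 in these 3 comparisons. That of all events with the same minimum of 20 counts was 0.0414, 0.0432 and 0.0468. For skipped exons alone the medians were 0.00792, 0.0107 and 0.0154 for members and 0.0376, 0.0394 and 0.0443 for all genes. Members and all events share this minimum but were not matched for depth, and counting error is larger in shallow events. The deepest Cox4i1 exon had 4712, 5592 and 2647 counts, while the median event of the series, with no minimum, had 22, 13 and 24. Whether the members differ less at equal depth was not tested, for these medians or for the shares past the size threshold. Cox18, an assembly factor that inserts subunit II of complex IV into the membrane, passed by size on few counts. Its exon chr5:90219360-90219523 had 18 inclusion and 2 skipping counts in CUG300 + vehicle and 23 and 0 in CUG300 + CWG-cPIP, and the interval of the difference, -0.129 to 0.581, spans 0.

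A smaller group of members used both forms. Ndufv3, a subunit of the NADH-binding part of complex I, has an exon of 1092 nt (chr17:31527310-31528401, plus strand), all coding and a multiple of 3 nt. The junctions are shown because the exon separates a long from a short form of the protein. Lower case is the exon before the junction and capitals the exon after it.
Ndufv3 entry: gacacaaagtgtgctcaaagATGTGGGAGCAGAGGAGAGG
Ndufv3 exit: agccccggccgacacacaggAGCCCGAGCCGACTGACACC
Ndufv3 skip: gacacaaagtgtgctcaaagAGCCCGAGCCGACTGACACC

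The Ndufv3 exon had 65 inclusion and 160 skipping counts in CUG10 + vehicle, 64 and 183 in CUG300 + vehicle, and 111 and 87 in CUG300 + CWG-cPIP. Because the inclusion form is long, these correspond to a low PSI of 0.0251 (0.0187 to 0.0334), 0.0217 (0.0162 to 0.0288) and 0.0749 (0.0571 to 0.0979). CUG300 + CWG-cPIP was the highest, and its interval overlaps neither of the others. The difference was 0.0532 (0.0346 to 0.0757, adjusted exact p = 3.6e-07) from CUG300 + vehicle and 0.0498 (0.0307 to 0.0725, adjusted exact p = 4.0e-05) from CUG10 + vehicle. CUG300 + vehicle and CUG10 + vehicle differed by -0.0034 (-0.0131 to 0.0058). Without the division by length the inclusion shares were 0.289, 0.259 and 0.561, and the event then passed the size threshold in both comparisons with CUG300 + CWG-cPIP.

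Atp5c1, the gamma subunit that forms the rotating shaft of ATP synthase, has an exon of 37 nt (chr2:10056770-10056806, minus strand) known to be left out in muscle. The ends of the coding sequence are shown because inclusion of the exon adds 1 codon before the stop codon. Lower case is the exon before, and capitals are the bases that follow it up to and including the stop codon.
Atp5c1 with the exon: atctctggggctgctgctctGGATTAA
Atp5c1 without the exon: atctctggggctgctgctctGTAA

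The Atp5c1 exon was included in 237 counts and skipped in 6 in CUG10 + vehicle, 302 and 8 in CUG300 + vehicle, and 136 and 6 in CUG300 + CWG-cPIP. The PSI was 0.963 (0.923 to 0.986), 0.962 (0.926 to 0.983) and 0.938 (0.871 to 0.977), with overlapping intervals. The difference of CUG300 + vehicle from CUG10 + vehicle was -0.0016 (-0.0418 to 0.0430).

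Ndufa5, an accessory subunit of complex I, had more skipping than most members. Its exon of 117 nt, chr6:24522659-24522775, had 21, 51 and 12 skipping counts against 514, 609 and 359 inclusion counts, a PSI of 0.905 (0.860 to 0.939), 0.822 (0.776 to 0.863) and 0.921 (0.868 to 0.958). CUG300 + vehicle was lowest, and the adjusted exact p was 1 and 0.56 against CUG10 + vehicle and CUG300 + CWG-cPIP. Ndufs8, an iron-sulfur subunit of complex I, has a 5′ splice site that adds 243 nt outside the coding sequence (chr19:3912467-3912709), with a PSI of 0.137 (0.0969 to 0.189), 0.228 (0.162 to 0.314) and 0.104 (0.0678 to 0.155). Here CUG300 + vehicle was highest, and the adjusted exact p was 1 and 0.30. A site 3 nt away, whose counts overlap with these, had a PSI of 0.126, 0.198 and 0.0795.

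ATP synthase genes held further events outside their coding sequences. A 5′ splice site of Atp5g3, which encodes the membrane ring subunit, adds 10 nt and stood at 0.261, 0.308 and 0.285. An exon of 55 nt in Atp5j, a coupling factor of the stalk, stood at 0.0554, 0.0746 and 0.0320, and a 5′ splice site of 635 nt in Atp5c1 at 0.0210, 0.0133 and 0.0096. The adjusted exact p of these was 1 in each comparison. The same Atp5j exon is listed a second time with other flanking exons, on 12 inclusion and 3 skipping counts, 20 and 7, and 2 and 10, a PSI of 0.696 (0.382 to 0.927), 0.621 (0.3997 to 0.821) and 0.103 (0.0121 to 0.350). CUG10 + vehicle and CUG300 + CWG-cPIP were under the minimum of 20 counts here, and the adjusted exact p of CUG300 + CWG-cPIP against CUG300 + vehicle was 0.30.

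**Figure D2:**
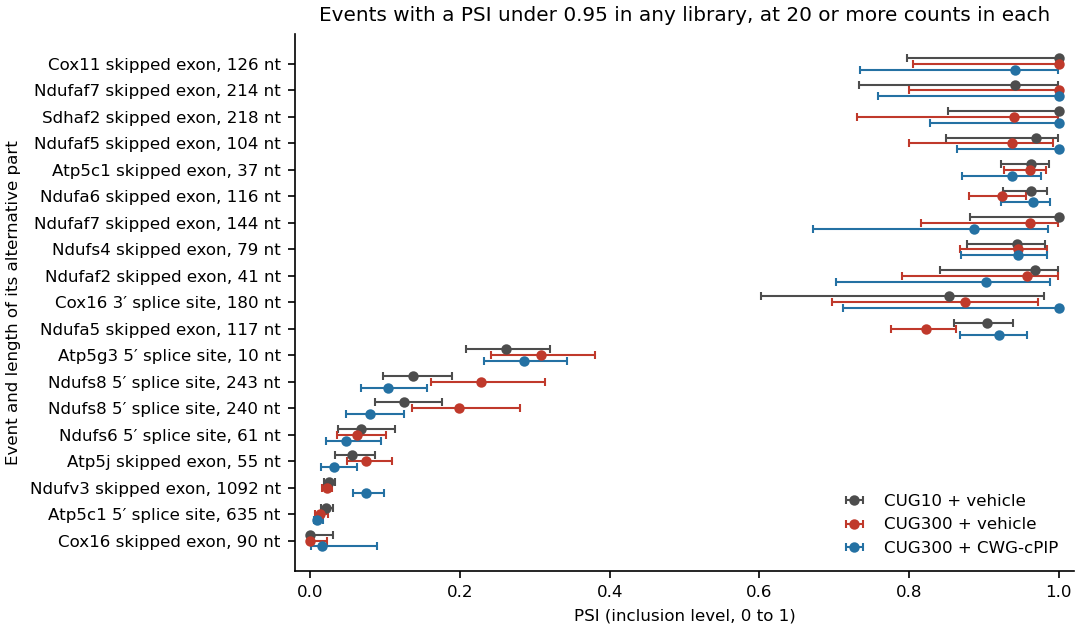
The horizontal axis is the PSI (0 to 1) of the 19 member events, exon pairs aside, with a minimum of 20 counts per library and a PSI under 0.95 in at least 1. Points are 1 mouse and bars are 95% Clopper-Pearson intervals. The Ndufv3 exon stands at 0.0749 in CUG300 + CWG-cPIP, apart from the other libraries, and the Ndufa5 exon is lowest in CUG300 + vehicle.

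Since the pairs above compare 2 retained exons of a gene, counts were next compared along the transcripts, a comparison chosen after the values of the pairs had been seen. Exons counted as retained had a PSI of at least 0.9 and at least 20 inclusion counts in each library. In 10 member genes with 2 or more such exons, the inclusion counts of the exon nearest the 5′ end were divided by those of the exon nearest the 3′ end. The ratio was lower in CUG300 + vehicle than in CUG10 + vehicle in 10 of 10 members, and in 71.4% of all 234 genes that could be measured. It was higher in CUG300 + CWG-cPIP than in CUG300 + vehicle in 9 of 10 members (71.8% of all genes) and higher than in CUG10 + vehicle in 8 of 10 (61.5%). Of the 10 genes, 5 are those with a pair, and in 3 of these (Cox6b1, Ndufa7 and Uqcrh) the ratio uses the very exons of the pair, so it restates the pair and is no further observation. The other 5 (Atp5b, Atp5h, Atp5o, Ndufaf5 and Ndufs4) had a lower ratio in CUG300 + vehicle than in CUG10 + vehicle in 5 of 5, and a higher one in CUG300 + CWG-cPIP than in CUG300 + vehicle in 5 of 5. Among these, Ndufaf5 (0.628, 0.625 and 0.776) had overlapping intervals in all 3 libraries. Those of Atp5h just overlapped between CUG10 + vehicle (0.970 to 1.155) and CUG300 + vehicle (0.843 to 0.972). All genes share the same libraries, so such counts are not independent.

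Several subunits had separate intervals in all 3 libraries. In Atp5b the ratio was 0.758 (0.716 to 0.803), 0.625 (0.582 to 0.670) and 0.991 (0.934 to 1.05) in the 3 libraries. In Cox6b1 it was 0.754 (0.697 to 0.816), 0.530 (0.493 to 0.569) and 1.15 (1.05 to 1.27), from exons that are those of its pair. In Atp5o, a stalk subunit of ATP synthase, it was 1.09, 0.864 and 1.50. The order was the same in each, with CUG300 + vehicle lowest and CUG300 + CWG-cPIP highest.

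In Ndufs4, an accessory subunit of complex I, CUG300 + vehicle stood apart at 0.324 (0.266 to 0.393), while CUG10 + vehicle had 0.684 (0.561 to 0.832) and CUG300 + CWG-cPIP had 0.842 (0.670 to 1.06). In Sdhc the ratio was 0.389, 0.250 and 0.558, and in Ndufs1 0.348, 0.250 and 0.450. The ratios of Sdhc and Ndufs1 each share an exon with the gene's pair, so they restate the pair in part, while Ndufs4 has no listed pair. Ndufa7 (0.636, 0.625 and 0.585) and Uqcrh (0.361, 0.348 and 0.355) had overlapping intervals in all 3 libraries. The exons of Ndufa7 and Uqcrh have centres 100 and 91.5 nt apart, and those of Cox6b1 107.5 nt.

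**Figure D3:**
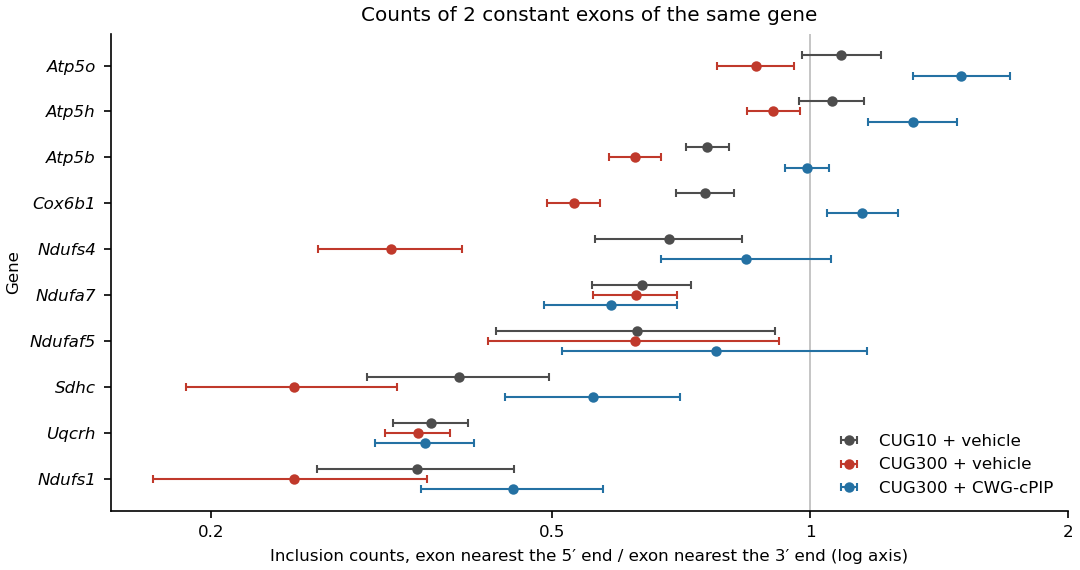
The horizontal axis (log scale) is the inclusion count of the retained exon nearest the 5′ end divided by that of the retained exon nearest the 3′ end, for 10 member genes. Points are 1 mouse and bars are 95% binomial intervals. CUG300 + vehicle has the lowest ratio in 9 of 10 genes, Ndufa7 being the exception, and Cox6b1 runs from 0.530 to 1.15.

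Exons were then compared across genes. For each of 53 retained member exons in 39 genes, the inclusion CPM was compared between libraries and set against the distance from the exon's centre to the 3′ end of its longest coding transcript. Between CUG300 + vehicle and CUG10 + vehicle, the 28 exons within 500 nt of the 3′ end had a median log2 ratio of 0.44, and 24 of 28 were higher in CUG300 + vehicle. The 12 exons between 500 and 1000 nt had -0.02, and the 3 between 1000 and 2000 nt, in 2 genes, -0.20. The 10 beyond 2000 nt, in 6 genes, had -0.06. Of these 10, 5 were higher, and they ran from -0.92 in Ndufs1 to 0.63 in Ndufab1. Their distance rests on the longest annotated coding transcript, such as 4371 nt for Ndufb2 and 3479 nt for Ndufab1. Whether the reads came from these long transcripts was not tested. The 157 exons of other genes within 500 nt had a median of 0.39, and the 350 between 500 and 1000 nt -0.03. Both were close to those of the members, while the 469 between 1000 and 2000 nt had -0.51 and the 460 beyond 2000 nt had -0.70.

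Between CUG300 + CWG-cPIP and CUG300 + vehicle the order was the opposite. Of the 28 member exons within 500 nt, 0 were higher with CWG-cPIP, with a median log2 ratio of -1.05. The medians were -0.10 between 500 and 1000 nt, 0.04 between 1000 and 2000 nt (3 exons) and 0.01 beyond 2000 nt. Exons of other genes had -0.75 within 500 nt, -0.18 between 500 and 1000 nt, 0.53 between 1000 and 2000 nt and 0.89 beyond 2000 nt. Between CUG300 + CWG-cPIP and CUG10 + vehicle the median within 500 nt was -0.61 for members and -0.31 for other genes. As a description across exons, which share libraries and often genes, Spearman's rho between distance and log2 ratio was -0.53, 0.62 and 0.61 for the 53 member exons in the 3 comparisons and -0.46, 0.54 and 0.38 for all 1489 exons. Median of ratios scaling, described below for gene totals, adds 0.53 to every log2 ratio of the first comparison and -0.76 and -0.23 to those of the others, so the sign within a distance class depends on it and the order along the distance does not. Member exons lay nearer to the 3′ end than most: 52.8% were within 500 nt, against 12.4% of all exons.

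**Figure D4:**
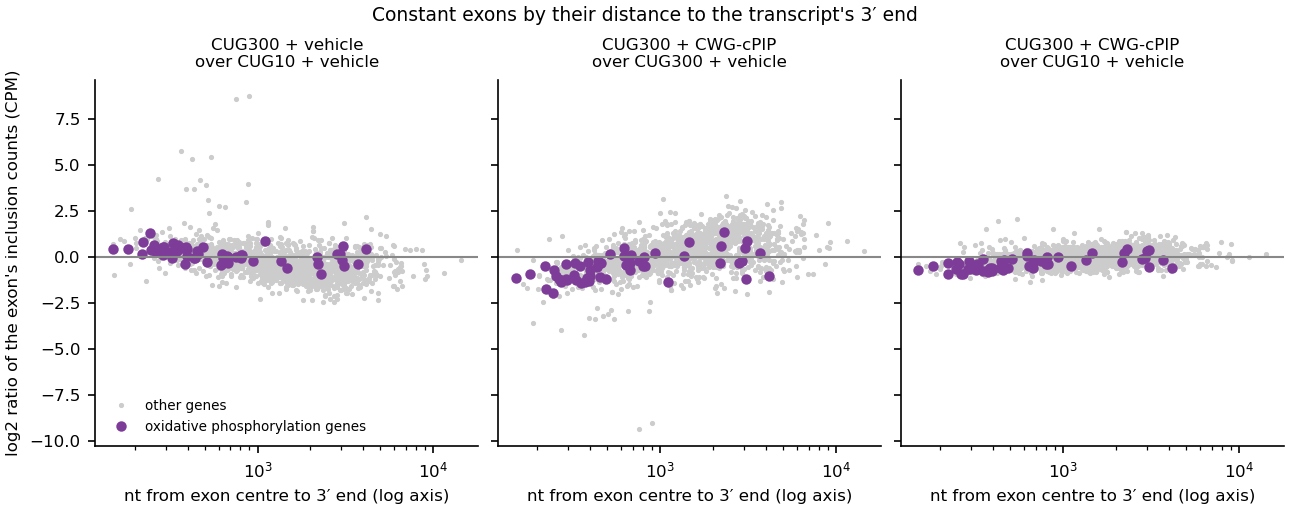
The horizontal axis (log scale) is the distance in nt from the centre of a retained exon to the 3′ end of its transcript, and the vertical axis is the log2 ratio of its inclusion CPM between 2 libraries. Large points are the 53 member exons and small grey points those of other genes. Exons near the 3′ end lie above 0 in CUG300 + vehicle over CUG10 + vehicle (24 of 28 members within 500 nt) and below 0 in CUG300 + CWG-cPIP over CUG300 + vehicle (28 of 28).

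A gene total is the sum of all inclusion and skipping counts of a gene, scaled to CPM. Events of a gene can share exons, so the same reads can enter a total more than once. In Uqcrh, for example, the 157 first-exon counts of the pair in CUG300 + vehicle recur as inclusion counts of its 21 nt exon. The intervals of totals treat all counts as independent, so they are too narrow for genes with such events. Ratios of totals compare single libraries, with no test. Over the 49 members with at least 20 counts, the median ratio of CUG300 + vehicle to CUG10 + vehicle was 1.18, with 37 higher and 12 lower, while the median of all 3698 genes was 0.698. A total at least 2-fold higher was seen in 1 of 49 (Cox20), against 5.19% of all genes, and one at least 2-fold lower in 0 of 49, against 30.8%. From CUG300 + vehicle to CUG300 + CWG-cPIP the median was 0.679, with 41 of 49 lower, against 1.67 for all genes. Here 0 of 49 were at least 2-fold higher, against 41.6%, and 12 of 49 at least 2-fold lower, against 6.71%. Between CUG300 + CWG-cPIP and CUG10 + vehicle the median was 0.769, with 42 of 49 lower, against 1.15 for all genes. There 1 of 49 (Atp5s) was at least 2-fold higher, against 11.9%, and 1 of 49 (Cox6b2) at least 2-fold lower, against 1.51%.

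Restricted to retained exons within 500 nt of the 3′ end, the median ratio of CUG300 + vehicle to CUG10 + vehicle was 1.34 over 22 members and 1.296 over all genes, and that of CUG300 + CWG-cPIP to CUG300 + vehicle was 0.511 and 0.590. From retained exons farther away, the medians were 1.02 over 17 members and 0.769 over all genes in the first case, and 0.856 and 1.296 in the second. This pool mixes unlike distances. Between 500 and 1000 nt the exon medians of members and other genes were close (log2 -0.02 and -0.03, then -0.10 and -0.18). Between 1000 and 2000 nt they differed (-0.20 and -0.51, then 0.04 and 0.53), on 3 member exons. Beyond 2000 nt they also differed (-0.06 and -0.70, then 0.01 and 0.89), on 10 member exons. Scaling by the median of ratios, which sets the middle gene near 1, shifted the log2 median of all genes from -0.52 to 0.01 in CUG300 + vehicle over CUG10 + vehicle. The median of the members then was 1.70, with 48 of 49 above 1, and 0.402 in CUG300 + CWG-cPIP over CUG300 + vehicle, with 47 of 49 below 1. The neuron and immune markers given above differ in the same libraries, and their part in these totals was not tested.

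In complex I the median of the 24 genes was 1.20 for CUG300 + vehicle over CUG10 + vehicle (17 higher, 7 lower) and 0.667 for CUG300 + CWG-cPIP over CUG300 + vehicle. Ndufa7 stood at 2553, 3768 and 1616 CPM in the 3 libraries, and the ratio of the first comparison was 1.48 (1.38 to 1.58) and that of the second 0.429 (0.396 to 0.464). Ndufb9 had 1898, 2567 and 1013 CPM, Ndufb3 1593, 2160 and 1081, and Ndufc2 1181, 1894 and 917. All 4 were highest in CUG300 + vehicle and lowest in CUG300 + CWG-cPIP.

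Ndufs1, whose longest coding transcript has 2661 nt, differed in order, at 1121, 699 and 1309 CPM. Its ratio of CUG300 + vehicle to CUG10 + vehicle was 0.624 (0.550 to 0.707), the lowest of the members with 100 or more counts, and it remained below 1 with median of ratios scaling (0.901). In complex II, Sdhc had 986, 1006 and 1052 CPM and Sdhb 709, 784 and 557. Sdhaf2, which attaches the FAD cofactor to complex II, had a ratio of 0.787 (0.559 to 1.10), or 1.14 with median of ratios scaling.

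In complex III, Uqcrh had 5302, 7865 and 3441 CPM. Its ratios were 1.48 (1.42 to 1.55) for CUG300 + vehicle over CUG10 + vehicle and 0.437 (0.414 to 0.462) for CUG300 + CWG-cPIP over CUG300 + vehicle. Uqcrc1, a core subunit, had 850, 888 and 555 CPM. Both were lowest in CUG300 + CWG-cPIP.

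Complex IV had the highest median for CUG300 + vehicle over CUG10 + vehicle, 1.43 over 9 genes, and 0.523 for CUG300 + CWG-cPIP over CUG300 + vehicle. Cox4i1 had 7730, 9850 and 4721 CPM, Cox6b1 6313, 9040 and 4819, and Cox6c 3688, 5026 and 2627. Each was highest in CUG300 + vehicle. Cox20, a chaperone of subunit II, had 100, 250 and 64.2 CPM, with a ratio of 2.50 (1.84 to 3.43). Cox6b2, the paralogue of Cox6b1 known from testis, had 192, 354 and 85.6 CPM and a ratio of 1.84 (1.46 to 2.34). Cox7a2l, which helps join complexes III and IV into supercomplexes, had 413, 350 and 419 CPM, and its ratio of 0.848 (0.700 to 1.02) became 1.22 with median of ratios scaling.

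In ATP synthase the median of 11 genes was 1.13 for CUG300 + vehicle over CUG10 + vehicle and 0.690 for CUG300 + CWG-cPIP over CUG300 + vehicle. Atp5b had 7857, 5866 and 7889 CPM. It was lowest in CUG300 + vehicle, with a ratio of 0.747 (0.714 to 0.780), or 1.08 with median of ratios scaling. Atp5h, a stalk subunit, had 4477, 7037 and 2617 CPM, and Atp5l, which takes part in the dimer of the enzyme, 458, 779 and 334, with a ratio of 1.70 (1.46 to 1.98). Atp5o had 2366, 2619 and 1750 CPM and Atp5g3 2095, 2380 and 1671.

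Subunits and the other members had medians for CUG300 + vehicle over CUG10 + vehicle of 1.23 over 36 subunits and 1.07 over 13 assembly factors and related genes. Many of these short genes have processed pseudogenes, and how reads that fit several places were counted is not given in the sources used here. Ndufa4l2 was the only member under 20 counts, with 15 over the 3 libraries.

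**Figure D5:**
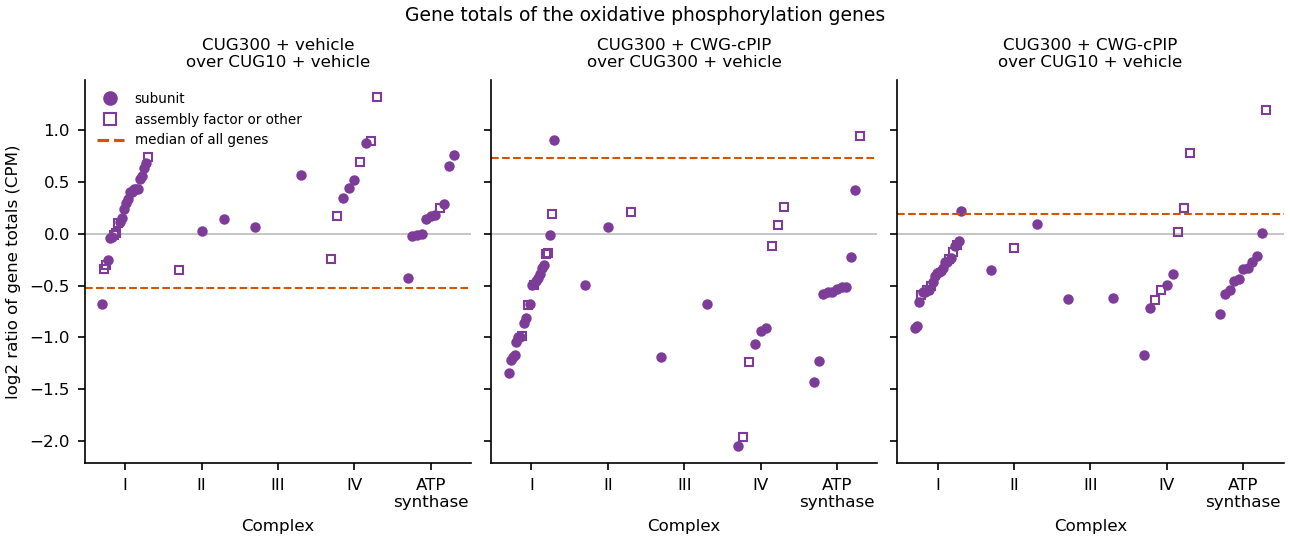
The vertical axis is the log2 ratio of gene totals (CPM) between 2 libraries for the 49 members with at least 20 counts, by complex. Filled circles are subunits, open squares are assembly factors and related genes, and the dashed line is the median of all 3698 genes. Most members lie above the dashed line in the first panel and below it in the others, with medians of 1.18, 0.679 and 0.769 as ratios.

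Other mitochondrial energy genes outside the name rule were listed from textbook knowledge, and 25 had at least 20 counts. A group of 8 was listed for the tricarboxylic acid cycle, which supplies NADH and succinate to the chain. It includes Dlat, a subunit of the pyruvate dehydrogenase complex and not of the cycle itself. Dlat had ratios of 0.505 for CUG300 + vehicle over CUG10 + vehicle and 3.92 for CUG300 + CWG-cPIP over CUG300 + vehicle. The 8 genes had the order of genes at large. Of all genes, 2688 of 3698 were lower in CUG300 + vehicle than in CUG10 + vehicle (median 0.698). In CUG300 + CWG-cPIP, 2725 of 3698 were higher than in CUG300 + vehicle (median 1.67). Of the 8, 8 of 8 were lower in CUG300 + vehicle than in CUG10 + vehicle (median 0.510), or 7 of 8 with median of ratios scaling (0.736). In CUG300 + CWG-cPIP over CUG300 + vehicle 8 of 8 were higher (median 2.28), or 5 of 8 with median of ratios scaling (1.35). Ogdh, a subunit of the 2-oxoglutarate dehydrogenase complex, had 415, 155 and 692 CPM, and Idh3b, a subunit of isocitrate dehydrogenase, 1427, 983 and 1512. The 14 genes for assembly and translation of the chain had medians of 0.962 and 0.973, with 6 and 7 higher, and medians of 1.39 and 0.576 with median of ratios scaling. The 3 transporters had medians of 0.674 (1 higher, 2 lower) and 1.16 (2 higher, 1 lower), or 0.974 and 0.685 with median of ratios scaling. Slc25a3, the mitochondrial phosphate carrier, had 2449, 2672 and 1914 CPM, while Slc25a12, an aspartate-glutamate carrier, had 121, 70.5 and 189 and Vdac3, a channel of the outer membrane, had 128, 86.3 and 99.9.

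Of the splicing events in these other genes, 0 of 29, 0 of 28 and 0 of 35 of sufficient depth were called in the 3 comparisons. By size alone 6 of 29, 7 of 28 and 1 of 35 passed, in Surf1, Bcs1l, Immt and Vdac3, against 9.34%, 11.3% and 8.56% of all events, and several of these events share a gene. The adjusted exact test was passed only by a mutually exclusive pair of Atpif1, the inhibitor of ATP synthase, at a PSI of 0.168 (0.148 to 0.190), 0.123 (0.107 to 0.142) and 0.188 (0.160 to 0.219). Its adjusted exact p was 0.036 for CUG300 + vehicle against CUG10 + vehicle and 0.0023 for CUG300 + CWG-cPIP against CUG300 + vehicle. Here too CUG300 + vehicle was lowest, while the intervals of CUG10 + vehicle and CUG300 + CWG-cPIP overlap.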

How the data were processed

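RNA of the hippocampus of 3 mice, 1 per group, had been sequenced by the authors as directional libraries. Per the paper's methods and the submitters' processing notes, reads went through Trim Galore 0.6.6, STAR 2.7.9a aligned them to mm10, and splicing was counted with rMATS. The deposited tables, 15 in all (5 event types, 3 pairs of libraries), hold inclusion and skipping counts per event and library, effective form lengths in nt, and the inclusion level as a fraction, which the authors computed from the counts and lengths. Skipping forms of skipped exons are 74 nt long in the tables. Further columns hold the authors' p-values, FDR and differences, and were not used. Columns of other samples numbered 0. The sample of each column was taken from the pair each table names. A library's counts were identical in the tables that share it (14737 of 14737), and PSI was recomputed from the counts within 0.0005 of the deposited fraction.

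PSI differences have Newcombe intervals, and Fisher's exact test was adjusted within event type and pair over all genes (Python 3.11.15, scipy 1.17.1). The test was checked on simulated data drawn for the same events, where it missed most of the smaller simulated shifts and found most of the larger ones, so an event that was not called may still differ. Gene totals sum the counts of all events with counts in the 3 libraries, scaled to the library total. Reads shared by events of a gene are counted once per event. Exons, transcripts and sequences come from GENCODE M21 (mm10), to which 50 of 50 symbols matched. Named events were those called or past the adjusted test or the size threshold, plus the deepest of each complex. Named totals were the up to 4 highest counts per complex and the 3 highest and 3 lowest ratios with 100 or more counts. Other named items were chosen after their values were seen. The members and gene lists were chosen with earlier results of these data known. Alternatives covered the count minimum, the adjustment, the division by length, the size threshold, the listing of events, the scaling and the events summed. Replicates were not available, so no error between mice is given. The sequence of 1 exon pair is not reported here.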

Additional observations from a re-analysis of the deposited data

How the results depend on the processing

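Each group is 1 mouse, so the spread between mice is unknown, and depth limits the shallow events most. No paired analysis was possible because each group has 1 sample. The comparisons, in order, were CUG300 + vehicle minus CUG10 + vehicle, CUG300 + CWG-cPIP minus CUG300 + vehicle and CUG300 + CWG-cPIP minus CUG10 + vehicle. Called member events numbered 0 of 63, 1 of 64 and 0 of 59, against 0.396%, 0.994% and 0.226% of all events. These became 1 of 63, 2 of 64 and 1 of 59 with no division by length (Cox6b1 and Ndufv3), against 0.356%, 0.994% and 0.226%. With a threshold of 0.10 they became 1 of 63, 2 of 64 and 0 of 59 (Cox6b1 and Sdhc), against 0.554%, 1.07% and 0.388%. Only events listed in all 3 pairs, where the Cox6b1 exon pair is not listed, gave 0 of 39, 0 of 37 and 0 of 39. The shares of all events were then 0.648%, 1.24% and 0.33%. Events from any table, an alternative chosen after seeing the data, gave 0 of 74, 2 of 73 and 1 of 73 (Cox6b1 and Ndufs1). Here the shares of all events were 0.372%, 0.921% and 0.208%. Past the size threshold alone there were 1, 2 and 0 member events, which became 3, 4 and 3 at a minimum of 10 counts (17.4%, 18.9% and 16.9% of all events) and 7, 7 and 6 with no minimum (41.8%, 42.7% and 38.8%). The median ratios of gene totals, 1.18, 0.679 and 0.769, became 1.70, 0.402 and 0.657 with median of ratios scaling. The members at least 2-fold higher then numbered 13, 0 and 0 in the 3 comparisons, and those at least 2-fold lower 0, 36 and 4, against 12.9%, 20.3% and 7.11% of all genes higher and 14.3%, 20.1% and 3.76% lower under that scaling. With events listed in all 3 pairs, 2 of 35 members were at least 2-fold higher in the first comparison (5.51% of all genes). In the same comparison, 1 of 35 was at least 2-fold lower (27.5%). In the second comparison 1 of 35 was at least 2-fold higher (38.4%) and 13 of 35 at least 2-fold lower (8.45%). With the deepest event of each gene these counts were 2, 0, 1 and 13 of 49, against 5.24%, 32.7%, 43.1% and 7.1% of all genes. With no minimum of counts, 2 of 50 members were at least 2-fold lower in the third comparison, against 2.77% of all genes. From exons within 500 nt of the 3′ end, chosen after seeing the data, the medians were 1.34, 0.511 and 0.671. Here 10 of 22 members were at least 2-fold lower in the second comparison, against 37.0% of all genes measured so. In the third, 0 of 22 were at least 2-fold higher (0.617%) and 0 of 22 lower (1.23%). From exons more than 500 nt away the medians were 1.02, 0.856 and 0.859. Of these members, 0 of 17 were at least 2-fold higher in the first comparison (2.98% of all genes measured so). In the second, 1 of 17 was at least 2-fold lower (5.19%). In the third, 0 of 17 were at least 2-fold higher (1.54%) and 0 of 17 lower (0.384%). No median ratio of the members changed direction under any of these alternatives, though 1.02 is close to 1. Those of all genes did. With median of ratios scaling they went from 0.698 to 1.01 in the first comparison and from 1.67 to 0.985 in the second.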
